A study of Mus musculus with 2 samples.

Results

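The epidermal growth factor (Egf) family was examined in mouse stomach, labelled as its glandular part, through the genes whose file symbol was 1 of 9 listed names: the ligands Areg, Btc, Hbegf, Ereg, Tgfa and Egf and the receptors Egfr, Erbb2 and Erbb3. Rows were found for 7 of the 9, the 6 ligands and Egfr, on 11 of the 25697 probes, and Erbb2 and Erbb3 are not analysed here. Per the labels, RNA was taken from the glandular stomach of 1 Agr2 null and 1 wild-type mouse, both labelled female and aged 26 weeks, and was biotin-labelled and hybridized to an Illumina MouseRef-8 v2 bead array for each mouse. The labels give neither the mouse strain nor how the null allele was built. Each probe on such an array binds 1 transcript sequence, and its fluorescence, in arbitrary units, rises with the amount of that RNA. With 1 array per group no difference has a replicate check, no test of genotype was possible, and fewer cells of a type cannot be told apart from less RNA per cell.

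Egfr is a receptor tyrosine kinase at the surface of epithelial cells. Its ligands are made as membrane-bound precursors and are cut free by Adam proteases. Bound receptors pair, also with Erbb2 and Erbb3, and signal through the Ras-Erk and PI3 kinase pathways to growth, migration and survival. In the stomach this family supports mucous cell growth and repair and restrains acid secretion, and overproduction of TGFA accompanies the enlarged mucous folds of Menetrier disease in people. Agr2, an endoplasmic reticulum protein of the disulfide isomerase family, has been tied to this family in human cancer cell lines, where it was needed for AREG expression and for the delivery of EGFR to the cell surface.

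Most detected ligands had higher signals on the array labelled null, Egf had a lower one, and the receptor Egfr was level. A probe was called detected on an array when under 0.01 of 1314 olfactory and vomeronasal receptor probes, used as background, were at least as bright there. By that rule 4 of the 7 genes were detected on both arrays, Ereg on the array labelled null alone, Egf only on the array labelled wild-type, and Tgfa on neither. Of the 6 detected genes, 4 were at least 2-fold higher on the array labelled null, 1 was lower and 1 was within 2-fold. Among all 9271 genes detected on at least 1 array, the share past 2-fold was 13.0% for higher and 17.1% for lower. The median log2 difference (null minus wild-type, normalized values) was 1.28 over the 6 genes and 0.00 over all detected genes. A gene below background on 1 array has a bound, its fold against the lowest detected value or its own, whichever is higher, on the normalized scale. Such a bound depends on the background correction, and signals as deposited, which include background, can differ by less. With these genes at their bound, 3 of the 6 were higher, 1 lower and 2 within 2-fold (median 1.21), where 10.6% and 13.5% of all detected genes were higher and lower.

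**Figure D1:**
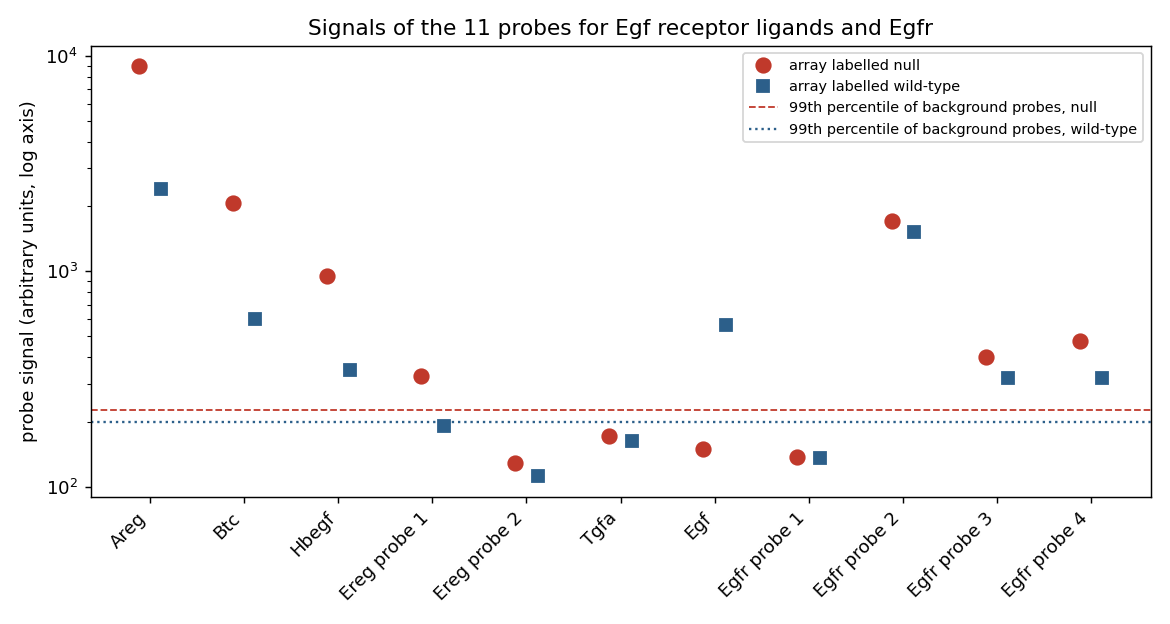
Signals (arbitrary units, log axis) of the 11 probes, with the array labelled null as circles on the left and the array labelled wild-type as squares on the right of each pair; the dashed line (227, null) and the dotted line (200.5, wild-type) mark the 99th percentile of background. Areg, Btc, Hbegf and probe 1 of Ereg lie higher on the array labelled null, Egf lies lower, and Tgfa lies under the lines on both.

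The targeted gene went against the genotype labels, and sex-linked genes went against the female label of the array labelled wild-type. Agr2 read 3406 on the array labelled null and 972 on the array labelled wild-type, with a normalized value 3.13-fold higher on the array labelled null. Only 1 probe reads it, and the labels do not say whether that probe lies in the deleted part, so it may check nothing. Xist, which coats the inactive X chromosome, read 1774 on the array labelled null and 186 on the array labelled wild-type. Of the Y-linked genes, Eif2s3y read 134 on the array labelled null and 2096 on the array labelled wild-type, Kdm5d 119 and 303, Ddx3y 2138 and 5332, and Uty 245 and 209.6. Arrays are therefore called by their labels only, and higher or lower always refers to the array labelled null. Over all probes the signal averaged 925 on the array labelled null and 811 on the array labelled wild-type.

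Cell composition markers differed between the arrays as well. Over all detected genes the share past 2-fold was 13.0% for higher and 17.1% for lower, and each marker list is short to set beside it. On the array labelled null, 7 of 8 parietal cell markers were at least 2-fold lower (summed signal 15185 on that array, 157573 on the array labelled wild-type). The same held for 7 of 8 squamous markers (3745 and 134983), 6 of 7 pancreatic acinar markers (7439 and 29970.0) and 7 of 7 smooth muscle markers (6 at the bound, 27430.1 and 101925). The remaining parietal marker, Car2, was 2.88-fold higher (9833 on the array labelled null, 3047 on the array labelled wild-type). Its other probe gave 0.06 on the log2 scale. The remaining squamous marker, Ivl, read 646 and 196 on these arrays, the second below background. It was 4.81-fold higher at its bound and 3.30-fold in the signals as deposited. The remaining acinar marker, Cela1, was within 2-fold. The squamous genes belong to the forestomach, although the labels name the glandular part alone, and Lor read 1114 on the array labelled null and 54602 on the array labelled wild-type. The squamous keratin Krt14 and the pancreatic enzymes Pnlip and Prss2 were below background on the array labelled null, and no probe read 0. Mucous neck cell markers were higher in 3 of 4 (95850.4 on the array labelled null, 48918.5 on the array labelled wild-type) and neutrophil markers in 5 of 5 detected (30814 and 3219). Chief cell markers were mixed, with 3 of 6 lower, 1 higher (Bhlha15, 3.51-fold) and 2 within 2-fold. Their summed signal was 59921 on the array labelled null and 206222 on the array labelled wild-type. Of 4 surface mucous cell markers with a row, 2 were lower and 2 were within 2-fold (125312 and 170138). Among 6 fibroblast markers none was past 2-fold. The part of these markers in the ligand differences was not tested.

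Amphiregulin (Areg, NCBI gene 11839), a ligand cut from the membrane chiefly by Adam17, read 8914 on the array labelled null and 2398 on the array labelled wild-type. Its normalized value was 3.28-fold higher on the array labelled null (log2 difference 1.72). No background probe was as bright on either array. Of the 9271 detected genes, 410 (4.42%) had a difference at least as high. Areg was the member whose value depended least on the processing, from 3.12-fold to 3.41-fold over the 6 alternatives that recompute the values.

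Betacellulin (Btc, NCBI gene 12223), which binds Egfr and Erbb4, read 2086 on the array labelled null and 605 on the array labelled wild-type. It was 3.22-fold higher on the array labelled null (log2 difference 1.69), and 4.59% of detected genes were at least as high. Both Btc signals were above all background probes.

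Heparin-binding Egf-like growth factor (Hbegf, NCBI gene 15200), an immediate early gene of wounded epithelia, read 956 on the array labelled null and 349 on the array labelled wild-type. It was 2.79-fold higher on the array labelled null (log2 difference 1.48), and 6.21% of detected genes were at least as high. No background probe was as bright on either array, and its fold ranged from 2.24 to 3.12 over the alternatives.

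Epiregulin (Ereg, NCBI gene 13874), a ligand of Egfr and Erbb4 induced in inflamed epithelia, was read by 2 probes that differed. The brighter probe read 328 on the array labelled null and 192 on the array labelled wild-type. On the array labelled wild-type 21 of 1314 background probes were at least as bright, so it was below the detection limit there. Ereg was higher on the array labelled null by 1.91-fold at its bound and by 1.71-fold in the signals as deposited. The other probe read 129 on the array labelled null and 112 on the array labelled wild-type, below background on both, with 796 and 967 background probes at least as bright. Ereg passed the filter through the array labelled null alone, and of the 699 genes that did so 57.9% were at least 2-fold higher before bounds were applied.

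Transforming growth factor alpha (Tgfa, NCBI gene 21802), the ligand named for Menetrier disease above, was not detected on either array. Its single probe read 172 on the array labelled null, where 121 background probes were at least as bright, and 163 on the array labelled wild-type, where 79 were. No fold is given, since a difference between signals in the background range was not detectable on these arrays.

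Egf itself (NCBI gene 13645), made in salivary glands and kidney, went the other way. It read 151 on the array labelled null, within background (325 of 1314 background probes were at least as bright), and 566 on the array labelled wild-type, above all of them. It was lower on the array labelled null by 5.34-fold at its bound and by 3.75-fold in the signals as deposited. The normalized values without the bound differed by -3.66 on the log2 scale, a size that rests on a signal within background. Of 997 genes detected on the array labelled wild-type alone, 77.2% were at least 2-fold lower. Most pancreatic acinar and squamous markers were lower on the array labelled null, as given above, and whether Egf transcripts came with those tissues was not tested.

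**Figure D2:**
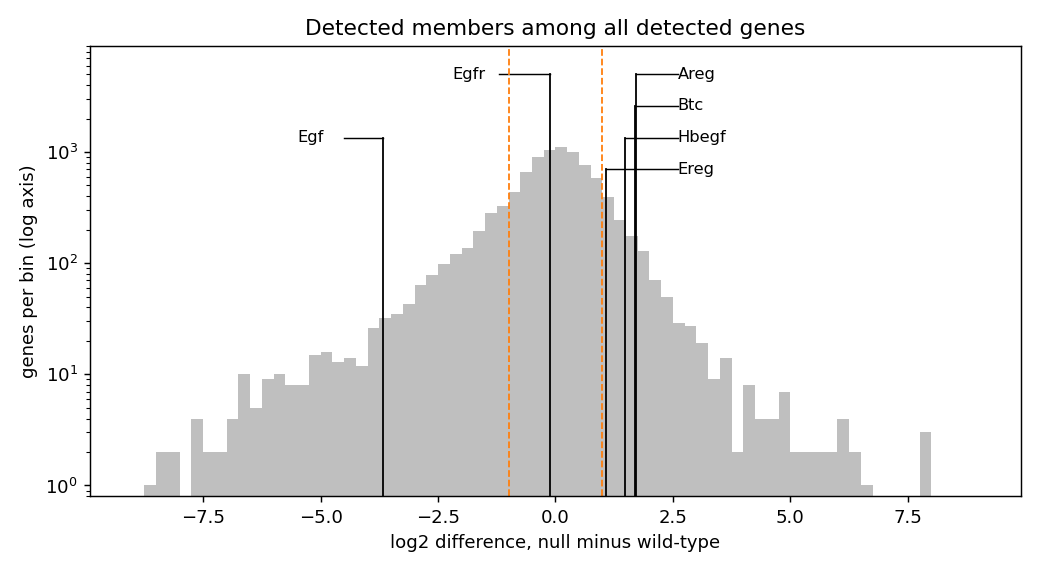
Histogram of the log2 difference (null minus wild-type, x axis) of the 9271 genes detected on at least 1 array, in bins counted on a log axis, with black lines at the 6 detected members and dashed lines at 2-fold. Areg, Btc, Hbegf and Ereg lie between 1.08 and 1.72, Egfr at -0.11 and Egf at -3.66, the values of Ereg and Egf resting on a signal below background.

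Egfr (NCBI gene 13649), the shared receptor, was read by 4 probes, and none of them differed by 2-fold. The brightest read 1715 on the array labelled null and 1525 on the array labelled wild-type, a log2 difference of -0.11 after normalization. The signals differed in the other direction, and the mean over all probes was also higher on the array labelled null, as given above. Another read 401 on the array labelled null and 319 on the array labelled wild-type (0.10). A further probe read 473 on the array labelled null and 320.04 on the array labelled wild-type (0.42). The remaining probe read 138 and 136 on these arrays, below background on both. The 3 detected probes thus spanned -0.11 to 0.42. Over the 1600 genes with several probes detected on both arrays, the range between probes of a gene had a median of 0.45, and it reached 1 in 18.6% of them.

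Areg, Ereg and Btc lie side by side on mouse chromosome 5 together with Epgn (epigen), with no other protein-coding gene between these 4 in the RefSeq annotation (GRCm38.p6). Epgn, also an Egfr ligand, was not detected, with 213 on the array labelled null and 179.7 on the array labelled wild-type. Of the 12 nearest protein-coding genes, 6 on each side, 7 were detected on at least 1 array. Of these, 2 were at least 2-fold higher, 1 was lower and 4 were within 2-fold, where 13.0% of all detected genes were higher and 17.1% lower. The higher ones were the neutrophil chemokines Cxcl1 and Cxcl2, neither of which was detected on the array labelled wild-type. Cxcl1 read 1321 on the array labelled null and 155 on the array labelled wild-type, 11.3-fold higher at its bound and 8.51-fold in the signals as deposited. Cxcl2 read 265 and 139 on these arrays and was 1.33-fold higher at its bound, so that 1 of the 7 stayed past 2-fold upward. The lower one was the platelet chemokine Pf4 (527 on the array labelled null, 786 on the array labelled wild-type, log2 difference -1.07). On the far side of Btc, Parm1 differed by -0.33, Rchy1 by 0.55, Cdkl2 by 0.52 and G3bp2 by 0.19.

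**Figure D3:**
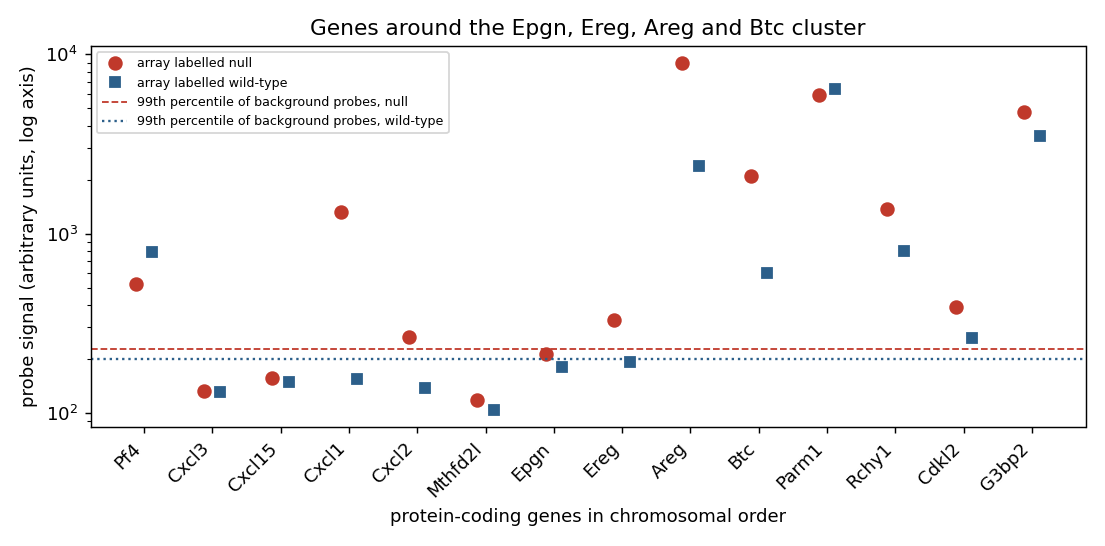
Signals (arbitrary units, log axis) of the genes with a row around Epgn, Ereg, Areg and Btc, in chromosomal order, with the array labelled null as circles on the left and the array labelled wild-type as squares on the right of each pair; dashed and dotted lines mark the 99th percentile of the background probes. Areg, Btc and Cxcl1 are well apart between the arrays, Rchy1 and Cdkl2 less so, and Parm1 and G3bp2 are close.

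Promoter sequences were read from a RefSeq table (GRCm38.p6), which had entries for 5 of the 7 genes, and the 250 bases before the transcription start are printed for the 2 neighbouring ligands with the highest differences and for Egf, which went the other way. They were searched on both strands for the cAMP response element TGACGTCA, the AP-1 site TGANTCA, the TEAD site GGAATG, the GC box GGGCGG of Sp factors, the TATA box TATAAA and the Ets site CCGGAAGT, none of which overlap in these windows. Capitals mark every match. Areg lies on the plus strand (chr5:91139349-91139598), Btc on the minus strand (chr5:91402995-91403244) and Egf on the minus strand (chr3:129755323-129755572).
Areg: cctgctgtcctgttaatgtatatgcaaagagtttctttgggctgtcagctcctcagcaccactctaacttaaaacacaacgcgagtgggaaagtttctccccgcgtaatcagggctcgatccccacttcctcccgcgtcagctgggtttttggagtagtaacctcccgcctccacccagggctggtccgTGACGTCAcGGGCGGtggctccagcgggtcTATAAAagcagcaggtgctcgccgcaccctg
Btc: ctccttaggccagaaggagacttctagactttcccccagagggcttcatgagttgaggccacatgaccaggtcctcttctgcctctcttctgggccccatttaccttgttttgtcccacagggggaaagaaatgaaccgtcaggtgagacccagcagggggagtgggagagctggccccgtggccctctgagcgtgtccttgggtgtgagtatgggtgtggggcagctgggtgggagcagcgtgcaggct
Egf: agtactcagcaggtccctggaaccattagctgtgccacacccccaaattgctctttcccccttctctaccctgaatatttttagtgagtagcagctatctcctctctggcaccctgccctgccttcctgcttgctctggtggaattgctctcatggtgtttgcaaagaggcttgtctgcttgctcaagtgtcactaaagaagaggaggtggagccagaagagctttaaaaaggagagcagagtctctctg
The Areg window held a cAMP response element 61 to 54 bases, a GC box 52 to 47 bases and a TATA box 31 to 26 bases before the start. Among 32851 promoter windows of the same length, 1.55% held that response element, 32.7% the GC box and 12.4% the TATA box. The printed windows of Btc and Egf held none of the 6 motifs. In windows not printed, Tgfa and Egfr held the GC box and Epgn the TATA box. Egf has a second listed start site, not printed, whose window held the Ets site 45 to 38 bases before the start. An AP-1 site was present in 6.75%, a TEAD site in 12.6% and the Ets site in 2.88% of all windows. The matches describe these letters and not binding.

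Among the other ErbB family genes, 4 of 6 had a row and 1 was detected. Neuregulin 1 (Nrg1), a ligand of Erbb3 and Erbb4, read 308 on the array labelled null and 160 on the array labelled wild-type, where it was below background, and was at least 1.73-fold higher. Nrg3 and Nrg4 were detected on neither array.

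Genes for proteases that cut the ligands from the membrane, their cofactors and an inhibitor were mostly within 2-fold. Of 8 detected among 11, 1 was higher (0 at the bound), 1 was lower and the other 6 did not reach 2-fold (median -0.31). These counts stand beside 13.0% higher (10.6% at the bound) and 17.1% lower over all detected genes, and 8 genes are few for that. Adam17, the main protease for Areg, Hbegf, Ereg and Tgfa, differed by 0.01 on the log2 scale (1190 on the array labelled null, 974 on the array labelled wild-type). Adam10, which cuts Btc and the Egf precursor, read 316 on the array labelled null and 174 on the array labelled wild-type, where it was below background, and was at least 1.80-fold higher. Adam15 was 2.43-fold lower (614 against 1075).

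Adaptors and kinases downstream of the receptor were also near level. Of 19 detected among 23 with a row, 1 was higher, 1 was lower and the remaining 17 did not reach 2-fold (median -0.32, or -0.12 at the bound). Among all detected genes 13.0% were higher and 17.1% lower. Gab1, a docking protein that links Egfr to PI3 kinase, was 2.95-fold lower (802 on the array labelled null, 1736 on the array labelled wild-type).

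Of 15 detected negative regulators among 20 with a row, 4 passed 2-fold upward (3 at the bound) and 11 did not reach 2-fold (median -0.14), against 13.0% of all detected genes upward (10.6% at the bound). Errfi1, also called Mig6, which binds and inhibits the Egfr kinase domain, was 2.10-fold higher (3869 on the array labelled null, 1582 on the array labelled wild-type). Socs3, an inhibitor of cytokine receptors, was 2.61-fold higher (2341 against 798), and Socs4, which acts on Egfr turnover, 2.09-fold higher (416 against 226). Dusp6, an Erk phosphatase, was within 2-fold (-0.64).

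Receptor endocytosis and sorting genes held the widest range of differences among the pathway lists. Of 14 detected among 15, 5 were higher, Agr2 among them, 1 was lower and the other 8 did not reach 2-fold (median 0.38). The share of all detected genes was 13.0% for higher and 17.1% for lower. Eps8, an Egfr kinase substrate that acts on actin and receptor trafficking, read 1007 on the array labelled null and 166 on the array labelled wild-type, below background there, and was 8.16-fold higher at its bound and 6.06-fold in the signals as deposited. Sh3kbp1, the adaptor Cin85 that joins Cbl to endocytic proteins, was 8.23-fold higher (4082 against 502), and its 4 probes gave 2.68 to 3.86 on the log2 scale. The early endosome GTPase Rab5a was 3.91-fold higher (1437 against 384.5), by the brighter of 2 probes, the other giving 0.90. Hgs, which sorts ubiquitylated receptors to lysosomes, was 2.03-fold lower (1095 against 1716), but its other detected probe gave 0.49. Rab7 was counted as within 2-fold by its brightest probe (-0.53), but its other detected probe gave 2.38.

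Response genes of the Erk cascade were higher or level. Of 14 detected among 18 with a row, 6 passed 2-fold upward (4 at the bound), none downward, and the list median was 0.75 (0.60 at the bound). Over all detected genes 13.0% passed upward (10.6% at the bound) and 17.1% downward. Plaur, the urokinase receptor, was 5.38-fold higher (1388 on the array labelled null, 302 on the array labelled wild-type), and cyclin D1 (Ccnd1) 2.99-fold higher (8553 against 2495). Egr2 was at least 1.68-fold higher (303 against 135, the second below background). The immediate early genes Fos and Egr1 were within 2-fold (0.70 and 0.80), and Jun and Atf3 differed by -0.53 and -0.68. All 5 detected neutrophil markers were higher on the same array, and their part in these values was not tested.

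Yap target genes, to which AREG itself belongs in human cells, had 4 of 8 detected, with 2 higher and 1 lower (median 1.03). Among all detected genes 13.0% were higher and 17.1% lower, and 4 genes are few to set beside these shares. Ccn1 was 2.27-fold higher (423 on the array labelled null, 219 on the array labelled wild-type) and Birc5 2.31-fold higher (1188 against 481). The receptor tyrosine kinase Axl was 4.18-fold lower (1157 against 3643), and Ccn2 was within 2-fold (0.87).

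**Figure D4:**
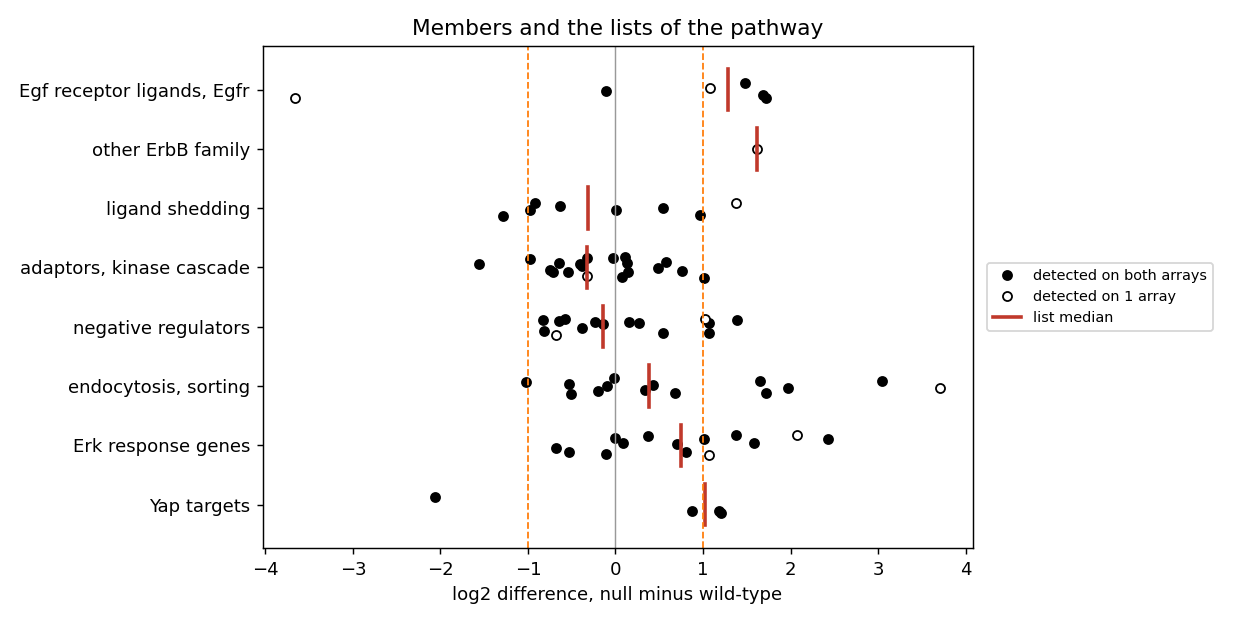
Log2 difference (null minus wild-type, x axis) of each detected gene of the Egf receptor ligands with Egfr and of 7 pathway lists, filled where detected on both arrays and open where detected on 1, with list medians as red bars and dashed lines at 2-fold. The medians lie at 1.28 for the ligands with Egfr, -0.32 for adaptors and kinases and 0.75 for Erk response genes.

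The sizes of the ligand differences under other processing are shown in the plot of member differences by setting. Of the 11 alternatives, 6 recompute the values of every probe, and the rest change only filters, bounds or the choice of probe. In each of these 6, Areg, Btc and Hbegf were more than 2-fold higher and Egf more than 2-fold lower. Ereg passed 2-fold in 2 of the 6, and neither as a mean over its probes nor at its bound. Egfr lay between -0.19 and 0.00 in the 6 and at 0.07 as a mean over its probes.

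**Figure D5:**
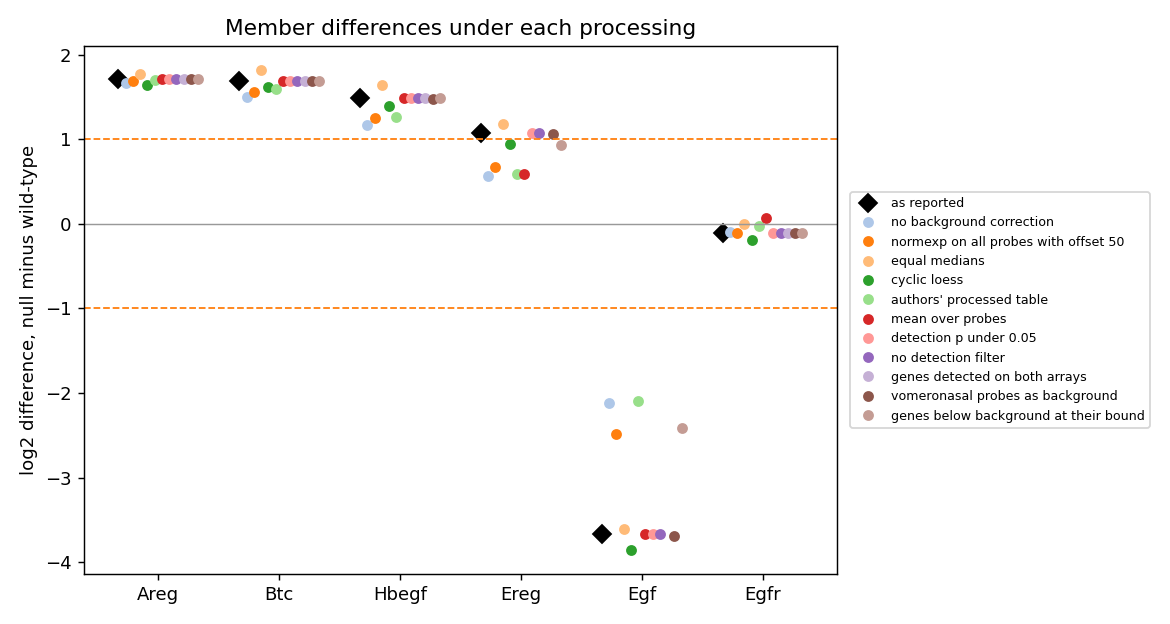
Log2 difference (null minus wild-type, y axis) of the 6 detected members as reported (black diamonds) and under each alternative processing (coloured points), with dashed lines at 2-fold. Areg, Btc and Hbegf lie between 1.17 and 1.82 in every setting, Ereg between 0.56 and 1.18, and Egf between -3.85 and -2.10.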

How the data were processed

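Probe signals of 2 arrays were analysed, 1 per genotype label. The deposited intensity values are linear and were deposited as not normalized, and no label says how beads were summarised. The authors' processed table held the same intensity values times 1 factor per array (0.842 for null, 0.960 for wild-type), as found from the values. The files hold no detection p-values or control probes, so 1314 olfactory and vomeronasal receptor probes, chosen by symbol, served as background. Expression of any of them in stomach would raise the detection limit.

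Signals were background-corrected in limma 3.58.1 (R 4.3.3) by its normal-exponential method with an offset of 16, then put through quantile normalization and log2. Background probes were left out of gene results. File symbols were matched to the RefSeq annotation GRCm38.p6, 14309 as current symbols, 2886 as synonyms and 943 not at all, of 18138. Where a gene had several probes, the one brightest on average after normalization stood for it. A gene below background on 1 array has a bound, the bright value against the higher of the dim value and the lowest detected value of that array. Differences were counted by size, at least 2-fold, with no test. The steps were tested on simulated arrays, with known folds placed only on probes well above background. Bounds and the folds of genes near background were not part of that test.

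The members and lists were chosen with earlier results of these data known. Named genes were all members, Agr2, the sex-linked genes and, per list, up to 3 genes past 2-fold in each direction (the 2 brightest where fewer than 2 passed). Some of these are not described here. Outside this rule, Adam17, Dusp6, Fos, Egr1, Jun, Atf3, Ccn2, Nrg3, Nrg4, Epgn, Cela1 and Rab7 were chosen after their values were seen. Neighbours were chosen by position. Alternatives were 11: background correction, normalization, source table, probe averaging, detection filters, background probes and bounds. Precision is limited by there being 2 arrays.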

Additional observations from a re-analysis of the deposited data

How the results depend on the processing

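Of the 6 detected members, 4 were counted as higher and 1 as lower, and under the alternatives the number higher was 3 or 4. The median log2 difference over the detected members, 1.28 as reported, was 0.86 without background correction, 0.96 with the normal-exponential fit on all probes and an offset of 50, and 0.93 in the authors' processed table, each under the 2-fold limit of 1. Ereg was under 2-fold in these 3 settings (0.56, 0.67 and 0.59), after cyclic loess (0.95), as a mean over its probes (0.58) and at its bound (0.94). Over genes detected on both arrays the count of lower members was 0, because Egf was below background on the array labelled null. Scaling to equal medians moved the median of all detected genes by 0.11, and the member differences under it include that shift. No member past 2-fold changed direction in the alternatives run, of which 6 recompute every value. Signals near background limit Ereg, Tgfa and Egf. Egf was 4.28-fold lower in the authors' processed table, 4.35-fold without background correction and 14.4-fold after cyclic loess. No paired analysis was possible because each group holds 1 array, and for the same reason no replicate could be left out.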
